A study of Mus musculus with 10 samples.

Results

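The genes described here are the 9 aquaporin genes *Aqp1*, *Aqp2*, *Aqp3*, *Aqp4*, *Aqp5*, *Aqp7*, *Aqp8*, *Aqp9* and *Aqp11*, and *Avpr2*, which encodes the vasopressin V2 receptor. They were chosen by name and make 10 of the 21792 genes with values in every mouse. The mean over all mice reached 0.1 FPKM in 9 of the 10, so these were tested, as were 17129 genes in all, and *Aqp5* was not. FPKM values count the fragments of a gene relative to its length and to the depth of the library, so levels of different genes can be set side by side. The mice were male wild-type C57BL/6 animals, 8 weeks old at the start of the experiment, none of which carried a transgene or a deleted gene. The 4 sham mice (B607, B634, B636 and H249) received PBS, and the 6 mice with aristolochic acid nephropathy (AAN mice A483, B614, B630, B639, B642 and B666) received 5 mg/kg aristolochic acid, a plant toxin that damages proximal tubules, once into the peritoneum. RNA came from the kidney cortex at day 28, and each mouse gave 1 library. The comparison addresses the expression of the genes in the fibrotic cortex.

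Aquaporins are membrane channels that let water cross, and the aquaglyceroporins among them (AQP3, AQP7 and AQP9) also pass glycerol. In the kidney, AQP1 lines the proximal tubule, the thin descending limb and the descending vasa recta, AQP7 sits in the brush border of the straight proximal tubule, and AQP11 lies inside proximal tubule cells. In principal cells of the collecting duct, vasopressin binds its V2 receptor, cyclic AMP rises, and vesicles carrying AQP2 move to the apical membrane. Water then leaves the cell through AQP3 and AQP4 in the basolateral membrane.

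By GENCODE annotation of the build GRCm38, *Aqp2* lies on chr15:99579055-99584547, 6.23 kb before *Aqp5*, and *Aqp3* lies on chr4:41092722-41098183, 44.6 kb from *Aqp7*. *Avpr2* lies on chrX:73892102-73895502, *Aqp1* on chr6:55336432-55348555, *Aqp9* on chr9:71110659-71168682, and *Aqp8* and *Aqp11* lie apart from each other on chromosome 7, at 123462291 to 123468004 and 97724006 to 97738289. The start region of 3 genes of the principal cell is shown, since these genes encode the receptor, the channel it regulates and a channel for the exit of water, and all 3 lay lower in AAN mice relative to other principal cell genes. Each is the strand of the gene from 250 bases before to 50 bases after the RefSeq start in GRCm38.p6, at chr15:99578806-99579105 (*Aqp2*, plus strand), chr4:41098134-41098433 (*Aqp3*, minus strand) and chrX:73891852-73892151 (*Avpr2*, plus strand). Capitals mark the motifs searched for.
Aqp2: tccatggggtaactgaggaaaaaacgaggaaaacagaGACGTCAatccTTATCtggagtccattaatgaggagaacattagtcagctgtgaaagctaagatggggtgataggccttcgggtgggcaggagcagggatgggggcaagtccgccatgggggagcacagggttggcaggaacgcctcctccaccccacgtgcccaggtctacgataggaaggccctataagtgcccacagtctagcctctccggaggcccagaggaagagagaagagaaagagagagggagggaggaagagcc
Aqp3: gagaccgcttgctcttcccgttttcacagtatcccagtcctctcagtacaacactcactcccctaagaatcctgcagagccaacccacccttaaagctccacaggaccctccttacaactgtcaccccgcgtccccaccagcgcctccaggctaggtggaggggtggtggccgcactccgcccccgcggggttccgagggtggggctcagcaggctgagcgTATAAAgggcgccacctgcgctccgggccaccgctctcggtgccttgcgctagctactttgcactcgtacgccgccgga
Avpr2: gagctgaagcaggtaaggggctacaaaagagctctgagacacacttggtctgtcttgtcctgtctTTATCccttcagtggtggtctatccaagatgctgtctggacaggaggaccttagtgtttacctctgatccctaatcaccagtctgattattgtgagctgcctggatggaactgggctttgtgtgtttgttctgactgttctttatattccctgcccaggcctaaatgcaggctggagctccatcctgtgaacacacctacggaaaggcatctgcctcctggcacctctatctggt
The cyclic AMP response element was searched as GACGTCA on both strands, the GATA site as GATAA on both strands (TTATC where it is on the other strand) and the TATA box as TATAAA on the strand of the gene. *Aqp2* held GACGTCA with its first base at position -213 from the start, which 3.21% of the 32851 RefSeq windows of this length also held. GATA letters began at position -202 in *Aqp2* and at position -185 in *Avpr2*, and 25.4% of all windows held them. Only *Aqp3* among the 9 genes with a window held TATAAA, which began at position -29 and is in 8.32% of all windows. GATA letters were also found in *Aqp7* and *Aqp9*. The letters GTTAAT, found in 7.10% of all windows and part of the site of HNF1, were searched on both strands and found in no window of these 9 genes. Such matches describe letters and show no binding.

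The depth recovered from low FPKM values was 15.8 to 17.5 M fragments in sham mice and 13.4 to 16.5 M in AAN mice. The share of all FPKM held by mitochondrially encoded genes was 39.5% to 61.4% for sham mice and 21.4% to 55.0% for AAN mice. A pair of libraries stood apart, with long transcripts higher than short ones against the median of their group. Genes were put into 5 equal bins by transcript length. In the sham mouse B607 and the AAN mouse B614, the bin of the longest transcripts deviated from the group median by 0.60 and 0.51 more on the log2 scale than the bin of the shortest, against -0.18 to 0.05 in the other mice. These mice also had the highest *Aqp1* and *Aqp3* of their groups, so values without them are given where a call changed. Their summed proximal tubule genes were highest too, 3890 FPKM in B607 (other sham mice 1954 to 2969) and 1999 FPKM in B614 (other AAN mice 509 to 868). B614 had the lowest sum of injured tubule genes among AAN mice, 1419 FPKM against 2017 to 3609. Which of these features goes with the levels of the water channel genes was not tested. Proximal tubule genes, which mark the cortex, were high in sham mice (the phosphate transporter gene *Slc34a1* had 2008 ± 627 FPKM, SD, n = 4). All 7 injured tubule genes were called higher in AAN mice, against 35.8% of all genes tested. *Havcr1*, the kidney injury molecule, went from 0.0337 ± 0.0302 FPKM (SD, n = 4) to 90.2 ± 53.8 (SD, n = 6).

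**Figure D1:**
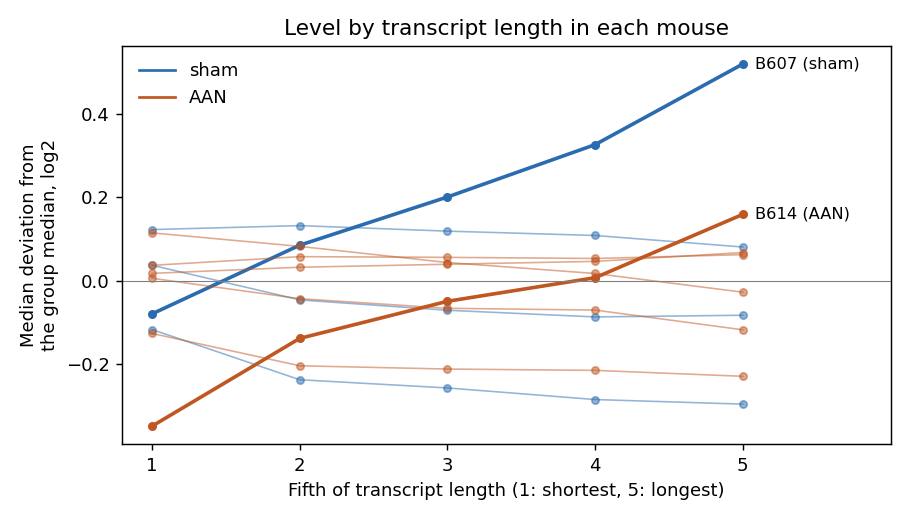
The median deviation of gene levels from the group median (log2) is plotted by bins of transcript length, with 1 line for each of the 4 sham and 6 AAN mice. The lines of B607 and B614 climb towards long transcripts, by 0.60 and 0.51, and the other lines stay nearly level.

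Most genes had higher FPKM in AAN mice. Over the 17129 genes the log2 fold change had a median of 0.75, and 82.3% of the genes lay above 0. A gene was called where its adjusted p (limma, Benjamini-Hochberg over all genes tested) was at most 0.05 and its change at least 2-fold on the log2(FPKM + 0.1) scale. By this rule 35.8% of the genes tested were higher in AAN mice and 3.43% were lower. After rescaling the mice by the median of ratios, after which the median change was 0.06, 19.0% were higher and 10.5% lower, so that 64.4% of the calls were of higher genes in place of 91.2%. Changes of the water channel genes are therefore given on both scales.

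Of the 9 tested genes, 2 were called higher in AAN mice (*Aqp4* and *Aqp9*) and 2 were called lower (*Aqp8* and *Aqp11*). *Aqp9* reached the filter through the AAN mice alone, so it had to differ, and its call is a description. The same holds for the list genes *Ptger2*, *Slc14a1*, *Slc14a2*, *Cxcr2*, *Cfd* and *Havcr1*, whose sham means were under 0.1 FPKM and whose log2 values rest on the pseudocount. In *Aqp4*, *Aqp8*, *Aqp9* and *Aqp11* the groups did not overlap: all AAN mice were above all sham mice in 2, and below them in 2. Over all genes tested, 40.3% had every AAN mouse above every sham mouse and 3.25% had every AAN mouse below. The log2 fold change was under the median of all genes in 7 of the 9, all but *Aqp4* and *Aqp9*. After the median of ratios, *Aqp1*, *Aqp2*, *Aqp3* and *Avpr2* were called lower as well, which makes 6 of the 9, and the 2 higher calls remained the same genes. In bulk tissue, fewer cells of a type and less RNA per cell cannot be told apart.

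**Figure D2:**
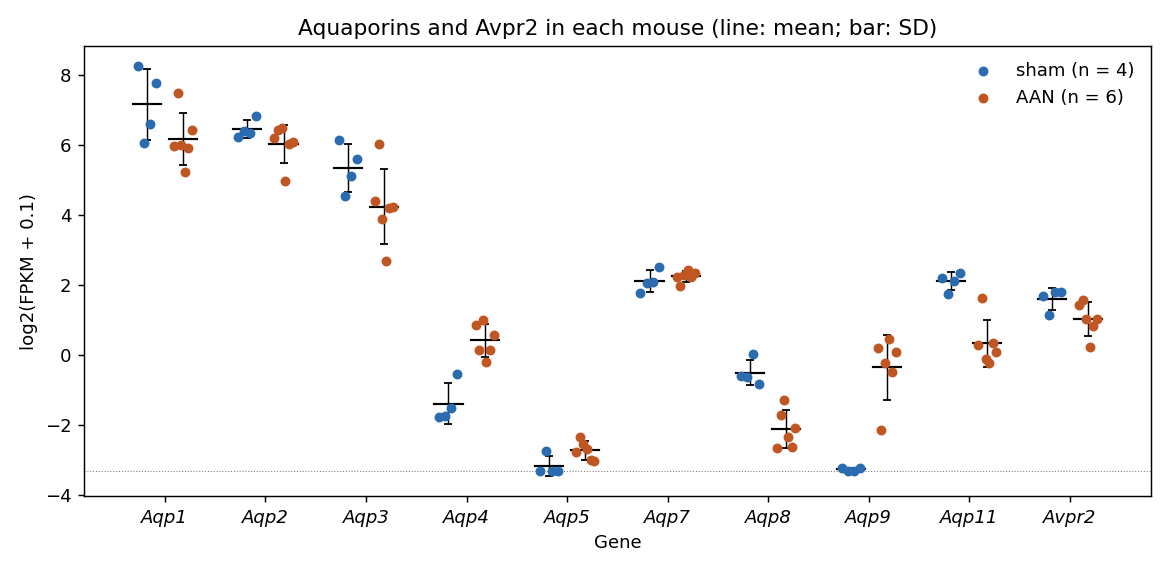
The level of each gene, as log2(FPKM + 0.1), is plotted for every mouse, with a line at the group mean and a bar of 1 SD. The dotted line is the level of 0 FPKM. The groups separate in *Aqp4*, *Aqp8*, *Aqp9* and *Aqp11* and overlap in the other genes.

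In sham mice *Aqp1* had the highest mean, 172 FPKM, followed by *Aqp2* with 89.0, *Aqp3* with 44.4, *Aqp7* with 4.31, *Aqp11* with 4.26 and *Avpr2* with 3.003. *Aqp8* (0.619), *Aqp4* (0.306), *Aqp5* (0.0118) and *Aqp9* (0.00289) came last. The ranges of neighbours overlapped for *Aqp1* and *Aqp2*, for *Aqp7* and *Aqp11*, for *Aqp11* and *Avpr2*, for *Aqp8* and *Aqp4*, and for *Aqp5* and *Aqp9*. In AAN mice the first 4 kept their order, *Avpr2* came before *Aqp11*, and *Aqp4* (1.296 FPKM) and *Aqp9* (0.794 FPKM) came before *Aqp8* (0.143 FPKM). There *Aqp1* exceeded *Aqp2* in 3 of 6 mice, and only the steps from *Aqp3* to *Aqp7* and from *Aqp7* to *Avpr2* were without overlap. The sum of the 9 aquaporins was 183 to 461 FPKM in sham mice and 83.9 to 342 FPKM in AAN mice. *Aqp2* made 16.4% to 46.3% of this sum in sham mice, against 25.3% to 50.9% in AAN mice.

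**Figure D3:**
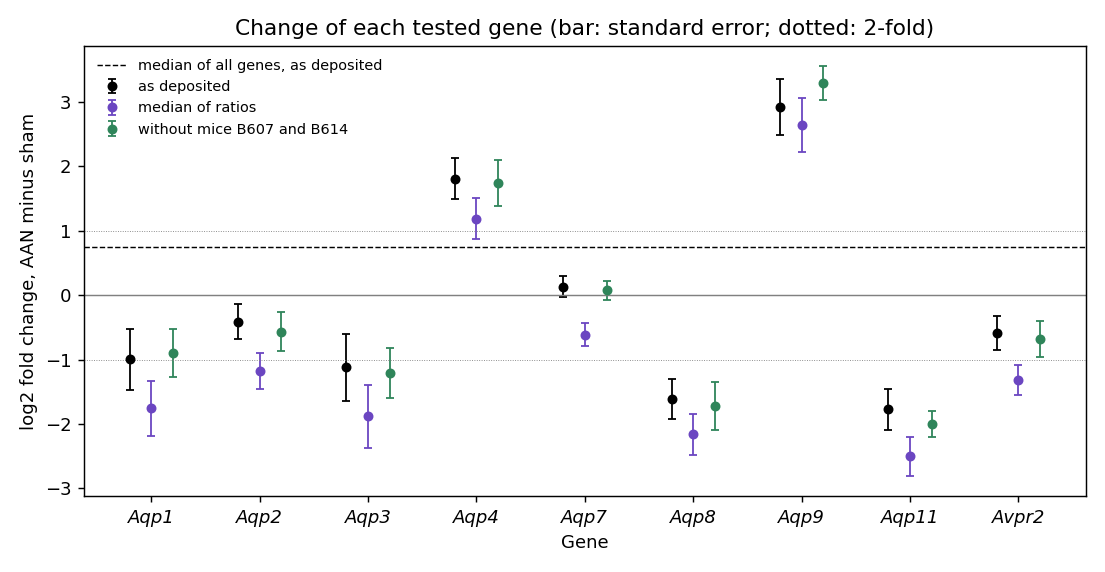
The log2 fold change of AAN over sham mice is plotted for the 9 tested genes, with its standard error, as deposited, after the median of ratios and without mice B607 and B614. The dashed line is the median of all genes (0.75) and the dotted lines are 2-fold changes. *Aqp4* and *Aqp9* lie above the dashed line as deposited and the other 7 genes below it. The value of *Aqp9* rests on the pseudocount and is a description.

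*Aqp11*, whose protein lies in the endoplasmic reticulum of proximal tubule cells, was lower in AAN mice. Its level was 4.51, 3.25, 4.27 and 5.02 FPKM in the sham mice B607, B634, B636 and H249, and it ran from 0.753 to 2.99 FPKM with a median of 1.04 in AAN mice. Every AAN mouse was below every sham mouse, and B614 was the highest AAN mouse. The means were 4.26 ± 0.744 FPKM (SD, n = 4) and 1.302 ± 0.844 FPKM (SD, n = 6), with a change on the log2 scale of -1.78 ± 0.32 (SE, limma adjusted p = 0.000587). The median of ratios gave -2.50. The call held in all alternatives run.

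*Aqp1*, the main water channel of the proximal tubule, had 306, 66.7, 97.1 and 218 FPKM in the sham mice B607, B634, B636 and H249. In AAN mice it ran from 37.7 to 182 FPKM with a median of 63.2. The groups overlapped, 4 of 6 AAN mice were below every sham mouse, and B614 was again the highest AAN mouse. The means were 172 ± 111 FPKM (SD, n = 4) and 82.1 ± 51.3 FPKM (SD, n = 6), and the log2 fold change of -0.995 did not pass (SE 0.47, 95% confidence interval -2.03 to 0.04, limma adjusted p = 0.0866). It passed without B614 (-1.26, limma adjusted p = 0.0216), without the sham mouse B634 (-1.37, limma adjusted p = 0.0307) and after the median of ratios (-1.76, limma adjusted p = 0.00581). Without B607 it was -0.63 (limma adjusted p = 0.256). Without both B607 and B614 it did not pass (-0.90, limma adjusted p = 0.0550).

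*Aqp7*, the brush border channel that takes glycerol back from the filtrate, had 3.34, 4.08, 4.17 and 5.64 FPKM in the sham mice B607, B634, B636 and H249. AAN mice had 3.83 to 5.30 FPKM with a median of 4.71, and the groups overlapped throughout. The means were 4.31 ± 0.963 FPKM (SD, n = 4) and 4.68 ± 0.495 FPKM (SD, n = 6), and the log2 fold change was 0.13 (SE 0.17, 95% confidence interval -0.24 to 0.50, limma adjusted p = 0.506). The sign turned after the median of ratios (-0.61, limma adjusted p = 0.0150) and after quantile normalization (-0.66, limma adjusted p = 0.0113). On both scales only the 2-fold limit kept *Aqp7* from being called lower.

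*Aqp8*, a channel found inside the cells of several epithelia, was lower in AAN mice but near the limit of detection there. It had 0.563, 0.542, 0.908 and 0.463 FPKM in the sham mice B607, B634, B636 and H249, and 0.0579 to 0.308 FPKM with a median of 0.116 in AAN mice. The groups did not overlap. These levels stand for at most 12.0 to 23.6 fragments in sham mice, against 1.51 to 7.56 in AAN mice, and 3 AAN mice had no more than 3 fragments. The means were 0.619 ± 0.197 FPKM (SD, n = 4) and 0.143 ± 0.0970 FPKM (SD, n = 6), with a log2 fold change of -1.61 ± 0.31 (SE, limma adjusted p = 0.000882). At this level the value depends on the pseudocount, and with 1 FPKM added it was -0.50, under the 2-fold limit.

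Most transporter genes of the proximal tubule were lower in AAN mice. Of the 8 genes of the proximal tubule list 6 were lower, against 3.43% of all genes tested, with a median log2 fold change of -1.78 against 0.75 over all genes. *Slc22a6*, an organic anion transporter, changed most (-4.28 ± 0.67, SE, limma adjusted p = 0.000186), while the sodium and glucose cotransporter *Slc5a2* (-0.60) and the lactate transporter *Slc5a12* (0.12) were not called. Each channel was therefore set against the mean log2 level of the 8 genes within the same mouse, where a scaling factor of the mouse cancels apart from the pseudocount. The list was not divided by segment, so it gives no measure of the straight part alone, where AQP7 sits. *Aqp11* minus this mean differed by 0.18 ± 0.19 (SE) between AAN and sham mice, within the spread of the mice (exact two-sided permutation p = 0.371). It was 0.05 without B607, 0.08 without A483 and 0.66 with 1 FPKM added (exact permutation, adjusted p = 0.0556). *Aqp7* minus this mean was -4.66 ± 0.572 (SD, n = 4) in sham mice and -2.57 ± 1.001 (SD, n = 6) in AAN mice, a difference of 2.09 ± 0.50 (SE, exact permutation p = 0.0238, adjusted p over the 10 differences = 0.0397). It was above every sham mouse in 5 of 6 AAN mice, and the exception was B614 with -4.54. *Aqp1* minus this mean was higher by 0.96 ± 0.40 (SE) in AAN mice, which did not pass (exact permutation p = 0.0524, adjusted p = 0.0748) except without B639 (1.06, exact permutation, adjusted p = 0.0476).

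*Aqp1* is also expressed in the endothelium of the descending vasa recta. None of the 7 endothelial genes was called (median log2 fold change 0.53), and their summed level was 66.6 to 107 FPKM in sham mice and 122 to 144 FPKM in AAN mice. *Aqp1* minus the mean log2 level of these genes was 4.17 ± 0.745 (SD, n = 4) in sham mice and 2.70 ± 0.703 (SD, n = 6) in AAN mice, lower by 1.46 ± 0.47 (SE, exact permutation p = 0.0190, adjusted p = 0.0397), with 5 of 6 AAN mice below every sham mouse. *Plvap*, the most expressed of the 7 genes, had 55.8 ± 11.8 FPKM (SD, n = 4) and 79.3 ± 9.25 FPKM (SD, n = 6). The list was not divided by type of vessel, so this difference gives no measure of the descending vasa recta alone. Red cells carry AQP1 too. The 5 erythroid genes summed to 3.67 to 33.7 FPKM in sham mice and 12.6 to 40.5 FPKM in AAN mice, none was called, and their part in the level of *Aqp1* was not tested.

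*Aqp2*, the channel that vasopressin moves to the apical membrane, stayed among the most expressed of the group. It had 75.7, 84.7, 82.2 and 113 FPKM in the sham mice B607, B634, B636 and H249, and 31.7 to 90.4 FPKM with a median of 71.0 in AAN mice. The groups overlapped, with 4 of 6 AAN mice below every sham mouse and B639 lowest. The values rest on 1878 to 2639 fragments in sham mice, against 602 to 1993 in AAN mice. The means were 89.0 ± 16.7 FPKM (SD, n = 4) and 69.3 ± 20.9 FPKM (SD, n = 6), and the log2 fold change of -0.42 did not pass (SE 0.27, 95% confidence interval -1.01 to 0.18, limma adjusted p = 0.1998). Without B639 it was -0.21 (limma adjusted p = 0.344). After the median of ratios it was -1.18 and passed (limma adjusted p = 0.00469).

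*Aqp3*, the basolateral channel for water and glycerol, had 71.1, 23.4, 34.5 and 48.5 FPKM in the sham mice B607, B634, B636 and H249. AAN mice had 6.32 to 65.2 FPKM with a median of 18.5. All AAN mice but B614 were below every sham mouse. The means were 44.4 ± 20.6 FPKM (SD, n = 4) and 24.0 ± 20.8 FPKM (SD, n = 6), and the log2 fold change of -1.12 did not pass (SE 0.52, 95% confidence interval -2.25 to 0.01, limma adjusted p = 0.0785). It passed without B614 (-1.48, limma adjusted p = 0.00692), without B607 and B614 together (-1.21, limma adjusted p = 0.0197), after the median of ratios (-1.88) and after quantile normalization (-1.46).

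*Aqp4*, the second basolateral channel, was higher in AAN mice at a much lower level. It had 0.191, 0.199, 0.251 and 0.585 FPKM in the sham mice B607, B634, B636 and H249, and 0.764 to 1.92 FPKM with a median of 1.19 in AAN mice. Every AAN mouse was above every sham mouse, and H249 lay apart from the other sham mice. The means were 0.306 ± 0.188 FPKM (SD, n = 4) and 1.296 ± 0.454 FPKM (SD, n = 6), with a log2 fold change of 1.81 ± 0.32 (SE, limma adjusted p = 0.000423). It was 1.19 after the median of ratios, and the call was lost after quantile normalization (0.56, limma adjusted p = 0.159) and with 1 FPKM added (0.80, under 2-fold). Within the kidney *Aqp4* is most abundant in the medullary collecting duct, so medullary genes were looked at. In a list of 5 such genes, chosen after the values were seen, 4 were tested. *Cryab* (2.53) was called higher, as was the urea transporter gene *Slc14a2*, which reached the filter through the AAN mice alone. *Akr1b3* (0.75) and *Slc5a3* (-0.18) were not called. The list summed to 28.6 to 69.2 FPKM in sham mice, with H249 highest, and to 89.7 to 270 FPKM in AAN mice, with B614 lowest. Most of this sum was *Cryab*, with 21.5 to 62.3 FPKM in sham mice and 79.9 to 261 FPKM in AAN mice, so it does not describe the list as a whole. The part of medullary tissue in the level of *Aqp4* was not tested.

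The principal cell list gave a measure for these genes within each mouse. Of its 8 genes, 1 was called higher, the transcription factor gene *Gata3* (1.03), and none lower, with a median log2 fold change of 0.64, and after the median of ratios none was called. Over all genes tested, 35.8% were called higher and 3.43% lower. *Hsd11b2*, which protects the mineralocorticoid receptor from corticosterone and is the most expressed of the principal cell list, had 125 ± 21.1 FPKM (SD, n = 4) and 148 ± 32.1 FPKM (SD, n = 6). The mean of the list weighs its 8 genes equally, and their log2 fold changes ran from 0.02 (*Scnn1g*) to 1.03 (*Gata3*). *Elf5* is among them, with a sham mean of 0.0694 FPKM and an AAN mean of 0.194 FPKM. Its change of 0.80 rests on the pseudocount, and the differences without it were not computed. Against the mean log2 level of the list, *Aqp2* was lower by 0.97 ± 0.23 (SE) in AAN mice, and all 6 AAN mice were below all sham mice (exact permutation p = 0.00476, the smallest this design allows, adjusted p = 0.0238). *Aqp3* was lower by 1.68 ± 0.43 (SE, exact permutation p = 0.0238, adjusted p = 0.0397), with 5 of 6 AAN mice below every sham mouse. *Aqp4* was higher by 1.25 ± 0.31 (SE, exact permutation p = 0.0143, adjusted p = 0.0397), with 5 of 6 AAN mice above every sham mouse. *Aqp2* minus *Aqp3* was 1.10 ± 0.736 (SD, n = 4) in sham mice and 1.81 ± 0.760 (SD, n = 6) in AAN mice and did not pass (exact permutation p = 0.210, adjusted p = 0.262), except without B614 (difference 0.98, exact permutation, adjusted p = 0.0340).

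*Avpr2*, the receptor that starts the response to vasopressin, had 3.09, 2.12, 3.40 and 3.40 FPKM in the sham mice B607, B634, B636 and H249. AAN mice had 1.07 to 2.87 FPKM with a median of 1.95. The groups overlapped, and 4 of 6 AAN mice were below every sham mouse. The means were 3.003 ± 0.607 FPKM (SD, n = 4) and 2.02 ± 0.651 FPKM (SD, n = 6), and the log2 fold change of -0.59 did not pass (SE 0.26, 95% confidence interval -1.16 to -0.02, limma adjusted p = 0.0679). It passed after the median of ratios (-1.32, limma adjusted p = 0.000697) and after quantile normalization (-1.50, limma adjusted p = 0.000579). Against the principal cell list *Avpr2* was lower by 1.15 ± 0.14 (SE) in AAN mice, with all 6 below all sham mice (exact permutation p = 0.00476, adjusted p = 0.0238). *Aqp2* minus *Avpr2* differed by 0.17 ± 0.21 (SE, exact permutation p = 0.405). The level of *Avpr2* is uncertain because 2347 of its 2886 exonic bases (81.3%) are also exonic in *Arhgap4* on the other strand, and the use of strand in the counting is not stated. *Arhgap4* was higher in AAN mice, with 0.329 to 0.554 FPKM in sham mice and 1.58 to 5.52 FPKM in AAN mice.

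**Figure D4:**
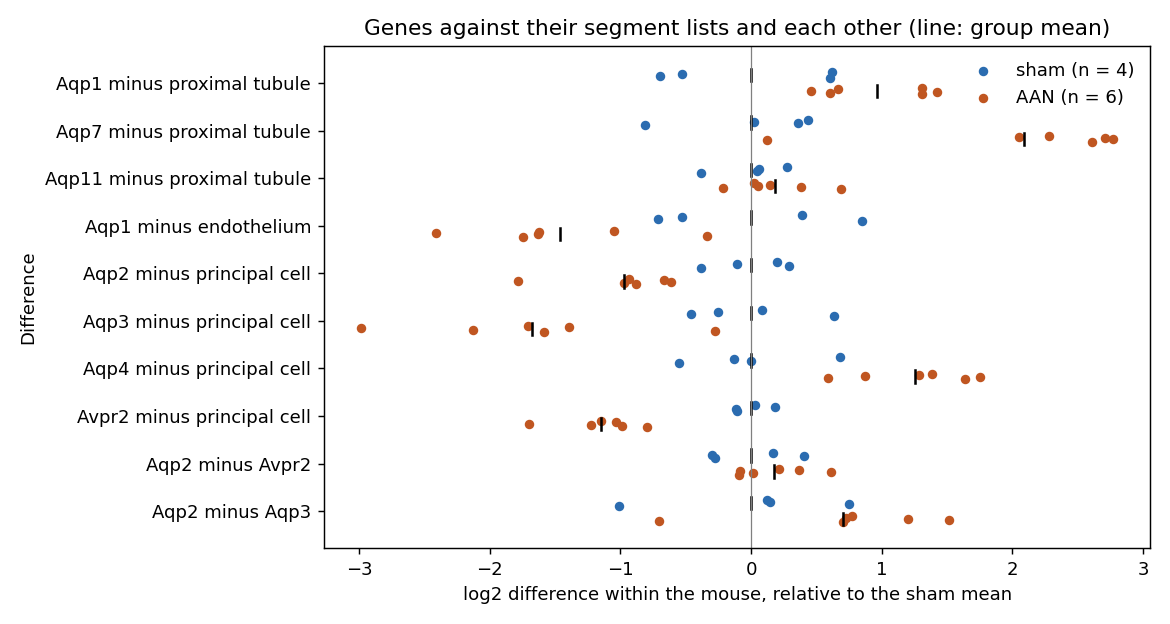
Each row is a difference of log2(FPKM + 0.1) within the mouse, a gene minus the mean of a list or minus another gene, drawn relative to the sham mean for 4 sham and 6 AAN mice, with a line at each group mean. AAN mice lie to the left of all sham mice in *Aqp2* and *Avpr2* minus principal cell, and in *Aqp11* minus proximal tubule 4 of the 6 AAN mice lie within the range of the sham mice.

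These differences rest on few mice. Of the 6 that passed, all held without B634 or B614, and all held without B607 and B614 together (exact permutation, adjusted p = 0.0298 for each). All 6 were lost without B607 or without B636, 4 (*Aqp1* minus endothelium, *Aqp3* and *Aqp4* minus principal cell, *Aqp7* minus proximal tubule) without A483, B630, B642 or B666, 3 without H249 (these but *Aqp4*) and 2 without B639 (*Aqp1* and *Aqp7*). The adjusted p of the lost calls was 0.0529 to 0.102 (exact permutation), every direction stayed, and the smallest raw p that 9 mice allow is 0.0119 or 0.00794. Without B607, *Aqp2* and *Avpr2* minus principal cell were -1.10 and -1.18, and without B636 -1.01 and -1.09. All AAN mice stayed below all sham mice in both. Their raw p was the smallest possible, 0.0119 (exact permutation), so the number of mice decided these losses.

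Few genes downstream of the receptor were called. Of the 13 genes of vasopressin receptor signalling, 2 were higher and none lower, against 35.8% and 3.43% of all genes tested. Their median log2 fold change of 0.76 was close to that of all genes. *Adcy6*, *Prkacb*, *Prkar1a* and *Akap7* had limma adjusted p of 0.00205 to 0.00406, and only the 2-fold limit kept them from being called higher. The regulatory subunit gene of protein kinase A *Prkar1a*, the most expressed of them, had 41.8 ± 7.99 FPKM (SD, n = 4) and 71.0 ± 12.0 FPKM (SD, n = 6) and stayed under 2-fold. The higher genes were *Arrb2*, an arrestin that ends receptor signalling, with 1.83 to 2.87 FPKM in sham mice and 8.69 to 26.5 FPKM in AAN mice (log2 fold change 3.10), and the adenylyl cyclase gene *Adcy3* (1.94). The cyclase gene *Adcy6*, the form that serves the V2 receptor in principal cells, had 15.1 ± 1.68 FPKM (SD, n = 4) and 27.1 ± 5.13 FPKM (SD, n = 6) and was under 2-fold as well (0.82).

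Among the other vasopressin and prostaglandin receptors, 2 of 5 tested genes were higher and none lower (median 0.51), near the 35.8% of all tested genes that were higher. They were *Ptger4*, with 0.349 to 0.616 FPKM in sham mice and 3.04 to 6.65 FPKM in AAN mice (log2 fold change 3.34), and *Ptger2*, with 0.0327 ± 0.0357 FPKM (SD, n = 4) and 0.878 ± 0.267 FPKM (SD, n = 6), the prostaglandin E2 receptors that raise cyclic AMP. *Avpr1a*, the V1a receptor, had a log2 fold change of 0.03. Leukocytes also express *Arrb2*, *Ptger2* and *Ptger4*. All 6 macrophage genes were higher, against 35.8% of all genes tested. Their sum was 34.3 to 53.1 FPKM in sham mice and 539 to 1846 FPKM in AAN mice. The part of macrophages in the levels of *Arrb2*, *Ptger2* and *Ptger4* was not tested.

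The machinery that moves and makes AQP2 was mostly within 2-fold. Of 15 genes of vesicle traffic, 1 was higher, the syntaxin gene *Stx4a* (1.15), and none was lower (median 0.52). Over all genes tested, 35.8% were higher and 3.43% lower. *Hspa8*, a chaperone that binds AQP2 for its retrieval and the most expressed of the vesicle traffic genes, had 269 ± 28.5 FPKM (SD, n = 4) and 171 ± 40.5 FPKM (SD, n = 6), a change on the log2 scale of -0.69 ± 0.20 that was under 2-fold (SE, limma adjusted p = 0.0103). After the median of ratios *Stx4a* was no longer called, and 1 gene of the list was called lower. Of 8 transcription factors linked to *Aqp2*, 3 were higher (*Elf3* 1.96, *Nfat5* 1.17 and *Gata3* 1.03) and none lower. This is near the 35.8% of all tested genes that were higher, and the median of 0.86 is near the 0.75 of all genes. After the median of ratios 1 was higher, against 19.0% of all genes. *Nfat5* drives the response of medullary cells to high salt.

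Of 8 genes for transport that builds the gradient for water uptake, none was called lower (median -0.22), while 4 were lower after the median of ratios. Over all genes tested, 3.43% were lower as deposited and 10.5% after the median of ratios. The urea transporters *Slc14a1* and *Slc14a2* were called higher. Both reached the filter through the AAN mice alone, so these calls are descriptions, and the other genes were not called. *Slc14a1* had 0 to 0.0848 FPKM in sham mice and 0.725 to 2.24 FPKM in AAN mice, and *Slc14a2* had 0 to 0.0180 FPKM and 0.206 to 1.72 FPKM. *Umod*, uromodulin of the thick ascending limb and the most expressed of them, had 882 ± 572 FPKM (SD, n = 4) and 522 ± 595 FPKM (SD, n = 6) with a log2 fold change of -1.04 that did not pass (limma adjusted p = 0.176). Of 5 intercalated cell genes, 1 was lower, the anion exchanger gene *Slc4a1* (-1.20, limma adjusted p = 0.0435), against 3.43% of all genes tested.

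For glycerol, the solute that AQP3, AQP7 and AQP9 share, 2 of 7 metabolic genes were lower and none higher (median -0.18). Of all genes tested, 3.43% were lower and 35.8% higher. Glycerol kinase, *Gk*, had 28.5 to 44.9 FPKM in sham mice and 8.76 to 23.2 FPKM in AAN mice (log2 fold change -1.49). Glycerol 3-phosphate dehydrogenase, *Gpd1*, had 93.6 ± 32.7 FPKM (SD, n = 4) and 40.7 ± 19.2 FPKM (SD, n = 6) (-1.25). Both are highly expressed in the proximal tubule. Adipocytes also use AQP7, and their genes were at low levels here. Of 5 adipocyte genes, 1 (*Cfd*) reached the filter, and the list summed to 0.0973 to 0.249 FPKM in sham mice and 0.217 to 1.69 FPKM in AAN mice.

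**Figure D5:**
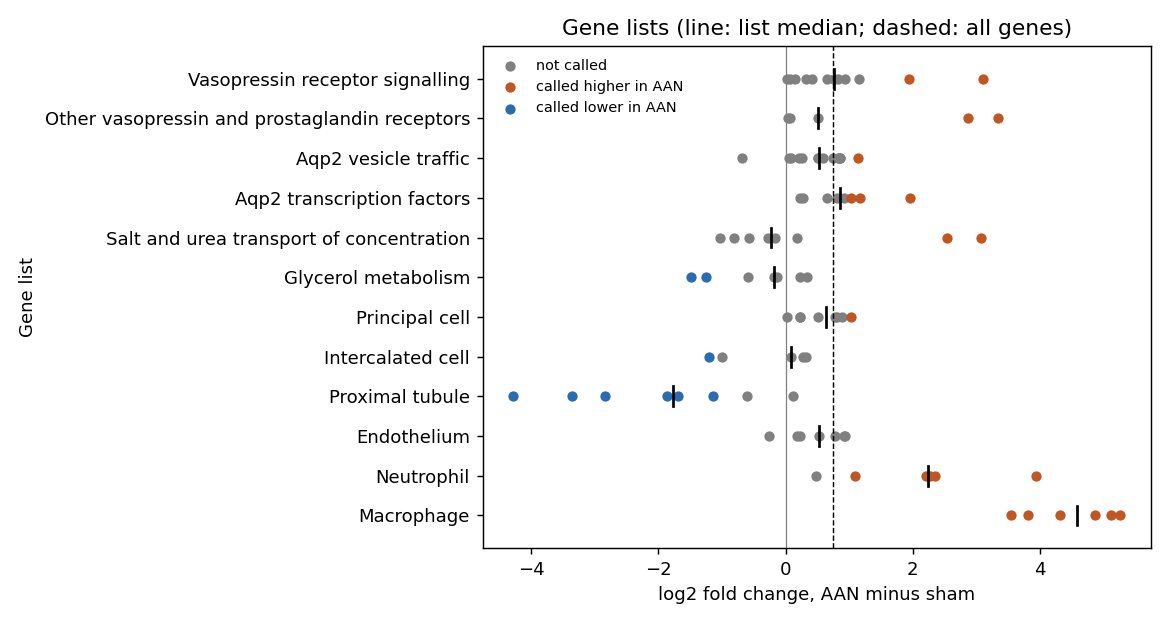
Each point is the log2 fold change of 1 tested gene of a list (AAN minus sham, as deposited), coloured by its call, with a line at the list median and a dashed line at the median of all genes (0.75). Most genes of receptor signalling, vesicle traffic and the principal cell lie between 0 and 1, proximal tubule genes lie to the left and macrophage genes to the right.

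*Aqp9*, a glycerol channel of hepatocytes and leukocytes, was not detectable in sham mice at this depth and was detected in all AAN mice. It had 0.00560 FPKM in B607 and 0.00596 FPKM in H249 and was at 0 in B634 and B636, at most 0.406 fragments. AAN mice had 0.125 to 1.27 FPKM with a median of 0.852, at most 8.13 to 71.5 fragments, and B614 was lowest. With all sham mice under 3 fragments, the log2 difference depends on the pseudocount, from 0.80 with 1 FPKM added to 5.72 with 0.01 FPKM. No fold and no p-value is therefore given, and its call and its plotted change are descriptions. Of 6 tested neutrophil genes 5 were higher (median 2.24), led by *Csf3r* (3.93), against 35.8% of all genes tested. *Retnlg* (0.48, limma adjusted p = 0.531) was not called, and *Cxcr2* reached the filter through the AAN mice alone. *Ly6g* and *Ngp* were too low to be tested. *Ly6g* was at 0 in every sham mouse, with an AAN mean of 0.0403 FPKM. For *Ngp* the sham mean was 0.0497 FPKM and the AAN mean was lower, 0.0305 FPKM. The list summed to 0.329 to 2.98 FPKM in sham mice and 4.43 to 18.2 FPKM in AAN mice. B614 was lowest among the AAN mice, as in the macrophage sum. Of 5 hepatocyte genes 3 were lower, against 3.43% of all genes tested, and none was called higher, *Alb* being at 2.90 ± 1.005 FPKM (SD, n = 4) and 0.578 ± 0.442 FPKM (SD, n = 6). The other 2, *Serpina1a* (1.28) and *Fgb* (1.78), had changes above 0 that were not called. The part of leukocytes in the level of *Aqp9* was not tested.

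*Aqp5*, a channel of glands and lung, was not detectable at this depth. It was at 0 in 3 of 4 sham mice and at 0.0471 FPKM in B634, and AAN mice had 0.0229 to 0.0951 FPKM with a median of 0.0505. This is at most 3.88 fragments, 3 fragments being worth 0.0955 to 0.125 FPKM, and no fold or test is given. *Aqp6*, an anion-conducting channel of intercalated cells 6.57 kb from *Aqp5* and no member of the set, had 20.6 ± 5.55 FPKM (SD, n = 4) and 23.6 ± 7.99 FPKM (SD, n = 6) and was not called (log2 fold change 0.19).

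The genes whose pattern over the 10 mice was most like each of the 9 tested genes were sought among 12246 genes whose mean reached 1 FPKM, by the root mean square of the difference of the log2 values after each gene's own mean was taken off. *Aqp11* was nearest to *Aldh9a1* (0.18) and *Acat1* (0.19), enzymes of aldehyde and ketone metabolism. *Aqp1* was nearest to *Aldh4a1* (0.25), an enzyme of proline breakdown, and *Acad10* (0.26), and *Aqp3* was nearest to *Aldh4a1* (0.23) and *Reps2* (0.25). *Aqp7* was nearest to *2810025M15Rik* (0.09) and *Ccpg1os* (0.10), whose log2 fold changes were 0.03 and 0.14. *Aqp2* was nearest to *Car15* (0.22), a membrane-bound carbonic anhydrase, and *Ggnbp1* (0.24), and *Avpr2* to *Plekha6* (0.20) and *Atp6v1e1* (0.24), a subunit of the proton pump. *Aqp4* was nearest to *Angpt2* (0.26), a ligand of the endothelial receptor Tie2, and *Fam171a2* (0.27), *Aqp8* to *Gm15883* (0.30) and *Nlrp6* (0.31), and *Aqp9* to *Cd72* (0.30), a B cell surface protein, and *Ccdc69* (0.33). These are descriptions over libraries that share their depth and composition.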

How the data were processed

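RNA of the kidney cortex of 10 mice, 4 sham and 6 AAN, was analysed, grouped by the sample labels. Per the paper's methods, the authors prepared paired-end TruSeq libraries for the HiSeq Xten, removed reads of rRNA, adapters, short length or low quality, aligned to GRCm38.p4 by Hisat2 2.0.4, and took FPKM from Stringtie 1.3.0. The deposited FPKM values were used with no further scaling. The annotation release of the authors is not given in the sources used here, and symbols and positions came from GENCODE mouse M21. Depth was recovered from low values of genes with 1 transcript (94.6% to 96.9% whole fragments within a tolerance of 0.05, against 13.5% to 15.2% in genes with several transcripts), so fragments of other genes are upper limits from the exonic length.

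Since FPKM are no counts, limma 3.58.1 in R 4.3.3 (lmFit, eBayes with trend and robust) was run on log2(FPKM + 0.1) for 17129 genes whose mean reached 0.1 FPKM, with Benjamini-Hochberg adjustment over all of them. Calls needed a 2-fold change and an adjusted p no higher than 0.05, the limits of the study's methods. Within-mouse differences were tested over all 210 divisions of the mice (exact permutation test, two-sided), with Benjamini-Hochberg adjustment over the 10 differences. P-values measure the spread between mice, each of which gave 1 library.

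The 10 genes and the gene lists were chosen with earlier results of these data known. Named list genes were the most expressed, those most changed each way and exceptions. *Adcy6*, *Ptger2*, the values of *Gk* and *Slc14a1* by range and the gene *Arhgap4* were added after values were seen, as were the list of medullary genes and the alternative without B607 and B614. Alternatives were other pseudocounts (1 and 0.01), filters, scalings and fit options, each mouse left out, and mice with B tags alone. Tables were made in Python 3.11.15 with pandas 2.3.3 and numpy 2.4.6, and plots with matplotlib 3.10.9. RefSeq windows (GRCm38.p6) matched 9 of the 10 genes.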

Additional observations from a re-analysis of the deposited data

Results flagged for a closer look

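In groups of 4 or 6 mice, 8 of 40 sets of values had 1 mouse far from the others by Dixon's limit. For independent sets chance gives about 1 in 20. The 40 sets share the same mice, and the differences reuse the gene levels, so the 8 cannot be set against that rate. Of the 8, 5 came from the AAN mouse B614, whose long transcripts stood apart. B614 also had the lowest sums of injured tubule and macrophage genes among the AAN mice. In B614 *Aqp1* was at 182 FPKM against 37.7 to 86.2 in the other AAN mice, *Aqp3* at 65.2 FPKM against 6.32 to 20.9 and *Aqp11* at 2.99 FPKM against 0.753 to 1.16. On the log2 scale B614 had *Aqp7* minus proximal tubule at -4.54 against -2.62 to -1.90, and *Aqp2* minus *Aqp3* at 0.40 against 1.81 to 2.62. The AAN mouse B639 had *Aqp2* minus principal cell at 2.13 against 2.94 to 3.30. The sham mouse H249 had *Aqp4* at 0.585 FPKM against 0.191 to 0.251, and the sham mouse B634 had *Aqp5* at 0.0471 FPKM against 0, under the level of 3 fragments.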

How the results depend on the processing

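The changes of *Aqp8* and *Aqp11* kept their direction in every alternative in which they were tested, and *Aqp11* also kept its call. *Aqp9* stayed higher as well, which its values near 0 in sham mice fixed in advance. With a pseudocount of 1, 2909 genes were higher, 0 of the 9 tested water channel genes were higher and 1 was lower, and *Aqp1* minus endothelium (-1.41), *Aqp3* minus principal cell (-1.49), *Aqp4* minus principal cell (0.38) and *Aqp7* minus proximal tubule (2.02) no longer passed. With a mean of at least 1 FPKM, 4025 genes were higher, 0 of the water channel genes were higher and 1 was lower, since *Aqp4*, *Aqp8* and *Aqp9* were not tested. The median of ratios left 3261 higher and 1801 lower genes, with 6 of the water channel genes lower. Quantile normalization left 2546 and 1992, with 1 water channel gene higher and 4 lower, and the median of ratios without B607 and B614 left 3388 and 1968, with 6 lower. In these, in the same order, *Aqp7* turned to -0.61, -0.66 and -0.74. With no fold limit, 9482 genes were higher and 1027 lower. In mice with B tags alone, where the smallest p is 0.0179, *Aqp1* minus endothelium (-1.28), *Aqp2* (-0.93), *Aqp3* (-1.67), *Aqp4* (1.405) and *Avpr2* (-1.21) minus principal cell and *Aqp7* minus proximal tubule (2.13) did not pass. The cause of these moves was not tested. *Aqp5* reached a test only without a filter and has no value here.

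With each mouse left out in turn, *Aqp1* minus endothelium ran from -1.70 to -1.18, *Aqp1* minus proximal tubule from 0.73 to 1.17, *Aqp11* minus proximal tubule from 0.05 to 0.27, *Aqp2* minus *Avpr2* from 0.07 to 0.31, *Aqp2* minus *Aqp3* from 0.37 to 0.98, *Aqp2* minus principal cell from -1.10 to -0.81, *Aqp3* minus principal cell from -1.96 to -1.42, *Aqp4* minus principal cell from 1.07 to 1.48, *Aqp7* minus proximal tubule from 1.82 to 2.48 and *Avpr2* minus principal cell from -1.22 to -1.04. The log2 fold changes that did not pass over all mice ran from -1.37 to -0.63 (*Aqp1*), -0.51 to -0.21 (*Aqp2*), -1.48 to -0.81 (*Aqp3*), 0.02 to 0.27 (*Aqp7*) and -0.74 to -0.43 (*Avpr2*). The water channel genes called lower numbered 2 to 4, the 4 without B614 being *Aqp1*, *Aqp3*, *Aqp8* and *Aqp11*. No paired analysis was possible because the tags name single mice and no number joins a sham mouse to an AAN mouse.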
